A study of Mus musculus with 6 samples.

Results

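The 9 genes described here encode surface antigens by which mouse stem and progenitor cells of the bone marrow are recognised and sorted: Ly6a, Kit, Cd34, Flt3, Slamf1, Cd48, Procr, Cd27 and Fcgr3. They were chosen by gene name, with earlier results of these data known. All 9 were found among the 18491 genes of the deposited table and all 9 passed the filter on low counts. RNA was sequenced from mouse bone marrow cells that the labels call haematopoietic stem and progenitor cells and that were collected by flow sorting. The wild-type group held 3 libraries and the Robo1 knockout group 3, all from cells taken 8 months after poly(I:C). This RNA duplex, which mimics a virus, was given in 3 doses and switches on the Mx1-cre recombinase. Mx1-cre acts in cells that respond to interferon, so the deletion is not limited to blood cells. Robo1 is a receptor for the Slit guidance proteins.

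The labels disagree on what the groups are. The design text names an Mx1-cre knockout, while the titles and the treatment field name a scrambled shRNA for the controls and a ROBO1 shRNA or a ROBO1, ROBO2 or ROBO3 knockdown for the others. Groups follow the description of each sample. Robo1 was not analysed here, and strain, age, the floxed allele and whether the controls carried Mx1-cre are not given in the sources used here. No label ties the libraries to different animals, so the p-values rest on the spread among these 6 libraries, and that spread may be technical. In bulk RNA, fewer cells of a type and less RNA per cell cannot be told apart.

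In the mouse, stem cells and the earliest progenitors carry Sca-1, encoded by Ly6a, together with the receptor Kit and few or none of the antigens of mature lineages. Within that population long-term stem cells are marked by CD150 (Slamf1) and EPCR (Procr) and lack CD48, while multipotent progenitors gain Flt3 and CD48. Myeloid progenitors keep Kit and lose Sca-1, and are divided by CD34 and by the Fc gamma receptors, of which Fcgr3 encodes CD16. Granulocyte-monocyte progenitors are high for both.

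The libraries held 42235077 to 58106099 counts. Their composition differed between the groups, with 42.3 to 43.3% of counts in the 100 most abundant genes of each wild-type library and 59.7 to 60.8% in each knockout library. Values are therefore given under 2 scalings. TMM scaling, which is robust to a few very abundant genes, set the median log2 fold change of the 15474 genes tested at -0.09. Total counts set it at -1.22. A gene was called at an adjusted p under 0.05 in edgeR's quasi-likelihood test, adjusted over all genes tested. With totals taken outside the 100 most abundant genes 8108 genes were still called lower, against 2229 with TMM and 10937 with total counts.

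Fcgr3 stood far above the other 8 genes in every library, and the genes that mark stem cells most closely stood lowest. FPKM, the deposited value per length and library, was 286 ± 16.8 for Fcgr3 in wild type (mean ± SD, n = 3) and 286 ± 20.1 in knockout (n = 3). In wild type Cd34 followed at 52.8 ± 3.81 FPKM, then Cd48 at 42.4 ± 1.99, Cd27 at 31.8 ± 4.64 and Ly6a at 27.0 ± 0.544 (n = 3 each). Kit stood at 3.39 ± 0.506 FPKM, Flt3 at 2.25 ± 0.182, Procr at 0.709 ± 0.0164 and Slamf1 at 0.248 ± 0.136. Only Cd27 and Ly6a, as neighbours in this order, had overlapping ranges. In knockout Cd48 came second at 25.9 ± 3.07 FPKM, with ranges that overlapped between Cd48 and Cd34 (22.9 ± 0.266), between Cd34 and Ly6a (21.0 ± 2.28), and between Slamf1 (0.239 ± 0.0529) and Procr (0.237 ± 0.170).

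The place of Cd34 in this order rests on the length used. With counts over the exon length of the GENCODE annotation, an order computed after the values were seen, Cd34 stood at 21.6 ± 1.37 FPKM in wild type, below Cd48 and Ly6a and with a range that overlapped Cd27, while Fcgr3 stayed first and Kit sixth. The deposited FPKM of a gene with several transcripts also implied a length that moved between libraries, from 4363 to 5044 bases for Kit and from 2716 to 3432 bases for Slamf1.

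The labelled cell type was checked against its antigens. Kit, which defines these gates, lay at ranks 5718 to 7031 of the 18491 genes by FPKM. Of 10 antigens of mature lineages that such a sort removes, Cd3e and Cd8a were not analysed here, and the summed level of the other 8 was 10.4 to 11.6 CPM with TMM in wild type and 7.15 to 9.32 CPM in knockout. Itgam, which encodes CD11b of myeloid cells, fell from 3.97 ± 1.35 to 2.06 ± 0.310 CPM (n = 3 each, edgeR adjusted p = 0.0251). Cd4 had no count in any knockout library, and 0 to 20 counts in the wild-type libraries.

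**Figure D1:**
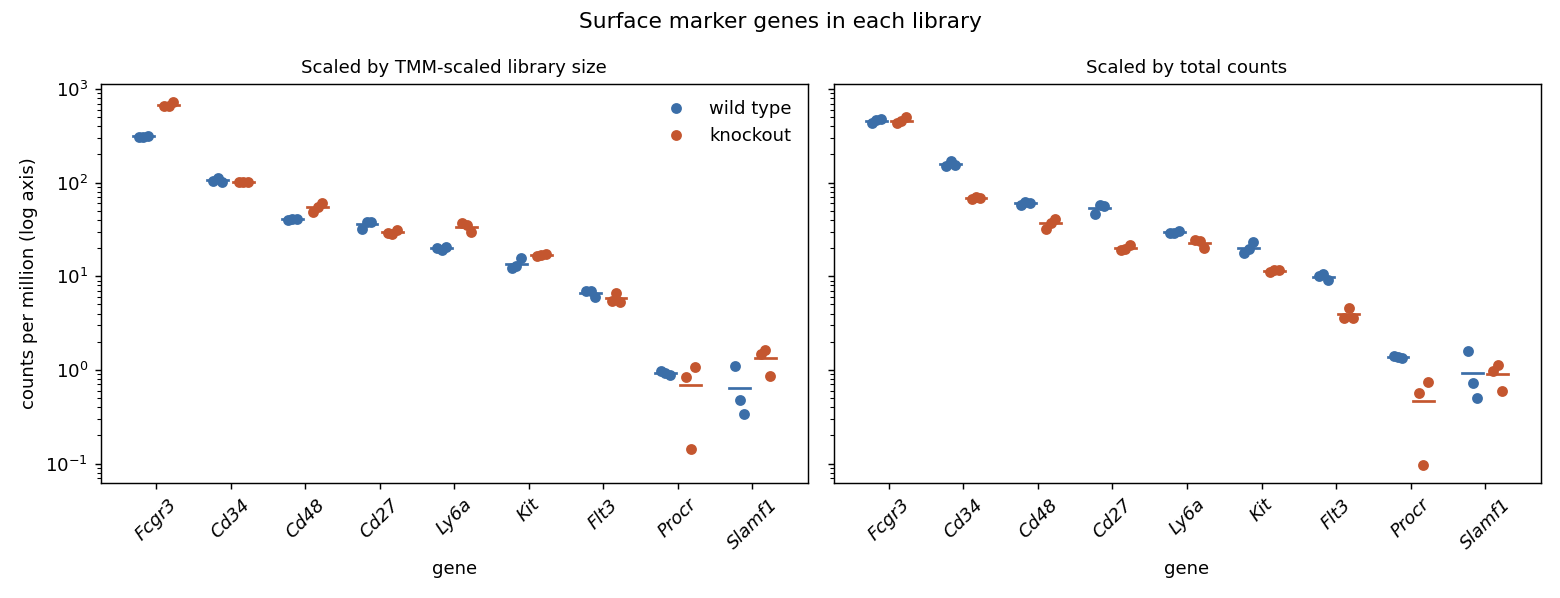
CPM of the 9 genes in each library, on a log axis, scaled by TMM-scaled library size (left) and by total counts (right). Points are libraries, with 3 wild type in blue and 3 knockout in orange, and bars are group means. With TMM the knockout libraries lie above wild type for Fcgr3, Cd48, Ly6a and Kit. With total counts no gene has all knockout libraries above wild type.

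With TMM scaling 3 of the 9 genes rose in knockout (Fcgr3, Ly6a and Cd48), 1 fell (Cd27) and 5 did not pass. Over all genes tested 17.2% were called higher and 14.4% lower, 31.7% in either direction, so the share of members called was not far from the background. With total counts 0 of the 9 were called higher and 7 lower, against 4.23% and 70.7% of all genes, and Fcgr3 and Slamf1 did not pass. The median log2 fold change of the 9 genes was 0.31 with TMM and -0.83 with total counts. By library, the knockout values lay all above wild type for 4 genes with TMM (22.2% of all genes) and all below for 2 (24.4%). With total counts they lay all above for 0 (4.85%) and all below for 7 (76.1%).

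**Figure D2:**
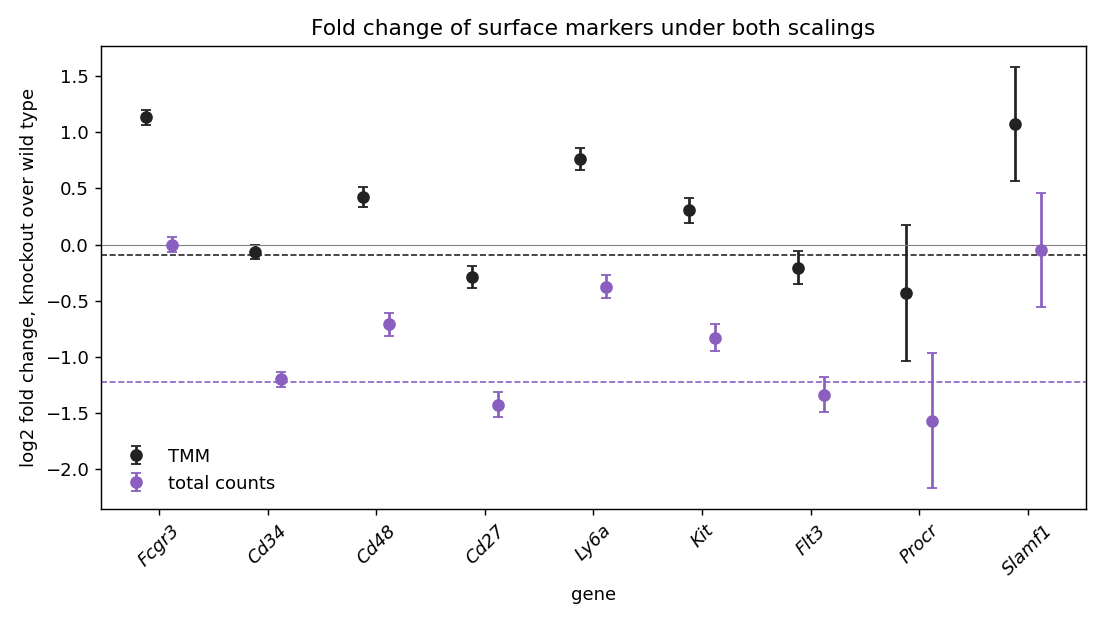
Log2 fold change of knockout over wild type for each of the 9 genes with TMM (black) and with total counts (purple), from edgeR with 3 libraries a group. Error bars are standard errors, and dashed lines mark the median of all genes tested, -0.09 with TMM and -1.22 with total counts. Total counts lower every gene by about the same amount, so the order of the genes is kept while the sign of 5 of them is not.

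Fcgr3 and Cd34 are read together in the myeloid progenitor gates, and their ratio was higher in every knockout library. Fcgr3 encodes the low-affinity IgG receptor CD16 (ENSMUSG00000059498, chromosome 1, 171051174 to 171064935, minus strand, GRCm38). It had 305, 311 and 319 CPM with TMM in the wild-type libraries and 657, 660 and 731 CPM in the knockout libraries. All knockout libraries lay above all wild-type libraries. The log2 fold change was 1.13 (SE 0.06, edgeR adjusted p = 1.18e-06), a rise of 2.19-fold. With total counts the libraries overlapped, at 438, 471 and 475 CPM in wild type against 434, 452 and 497 CPM in knockout, and the log2 fold change was -0.0016 (SE 0.07, edgeR adjusted p = 0.984).

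Cd34 encodes a sialomucin of progenitors and of the cells that line blood vessels (ENSMUSG00000016494, chromosome 1, 194938819 to 194961279, plus strand). With TMM its values were 105, 112 and 103 CPM in wild type against 102, 102 and 101 CPM in knockout, with the knockout libraries just below wild type. Its log2 fold change of -0.07 (SE 0.06) did not pass (edgeR adjusted p = 0.483). With exon length and GC offsets Cd34 was called higher, at 0.25 (edgeR adjusted p = 0.0188). With total counts Cd34 fell by 1.20 on the log2 scale (SE 0.07, edgeR adjusted p = 9.56e-07), near the median of all genes. An antisense gene, Gm16897, overlaps its exons, and no source used here gives the strand setting of the counting.

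The ratio of the counts of a pair of genes within a library does not depend on how the library is scaled. It can change with exon length and GC offsets, with which no ratio was computed. Fcgr3 had 2.91, 2.79 and 3.10 times the counts of Cd34 in wild type and 6.48, 6.45 and 7.22 times in knockout. The log2 ratio was 1.55 ± 0.0771 in the former and 2.75 ± 0.0920 in the latter (mean ± SD, n = 3 each), a difference of 1.20 (SE 0.07), with every knockout library above every wild-type library. In a two-sided exact permutation test the p was 0.1, the smallest that 3 libraries against 3 allow, and 0.2 adjusted over 10 pairs, so no pair could pass 0.05. The pairs were chosen with earlier results of these data known, and how often pairs drawn from all genes separate the groups was not computed. Of the counts of all 9 genes together, Fcgr3 took 58.0 ± 0.652% in wild type and 73.6 ± 0.993% in knockout, and Cd34 took 19.8 ± 0.848% and 11.0 ± 0.546% (n = 3 each).

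Fcgr3 and its neighbour Fcgr2b, the inhibitory receptor CD32, are seen by the same antibody in most progenitor gates, and their transcripts are alike enough for short reads to be ambiguous. Of the 1733 windows of 50 bases in Fcgr3 transcripts 9.58% were also found in Fcgr2b, and 0 in Fcgr4. The longest coding stretch that the 2 genes share is 129 bases long, joins 2 exons of Fcgr3 and lies within chr1:171054167-171057792 (GRCm38, minus strand), as read from the GENCODE transcripts. It is shown because reads that lie wholly within it cannot be assigned to one gene.
Fcgr3 and Fcgr2b: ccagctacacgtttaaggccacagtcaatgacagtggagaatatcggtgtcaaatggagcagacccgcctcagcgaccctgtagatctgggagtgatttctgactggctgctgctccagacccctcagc

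Fcgr2b rose as well, from 41.5 ± 0.969 to 75.0 ± 5.67 CPM with TMM (n = 3 each, log2 0.85, SE 0.08, edgeR adjusted p = 3.34e-05), and stood at -0.28 with total counts, a call in the other direction. Per length, Fcgr2b stood at 32.3 ± 1.56 FPKM in wild type against 26.1 ± 1.85 FPKM in knockout (n = 3 each), far below Fcgr3. Fcer1g, the signalling chain that Fcgr3 needs at the surface, had 405, 381 and 387 CPM in wild type against 906, 923 and 900 CPM in knockout. Its rise on the log2 scale was 1.22 (SE 0.05, edgeR adjusted p = 2.87e-07) and stood at 0.09, not a call, with total counts (edgeR adjusted p = 0.15), values close to those of Fcgr3. Fcgr4, an activating receptor of mature myeloid cells, fell from 4.07 ± 1.24 to 2.03 ± 0.213 CPM (n = 3 each, SE of the log2 fold change 0.26, edgeR adjusted p = 0.0182). Fcgr1, the high-affinity receptor, had 10, 33 and 23 counts in wild type and 0 in each knockout library.

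The promoters of Fcgr3, Cd34 and Cd48 are printed because the first and last of these genes rose with TMM while the other did not. They come from RefSeq (GRCm38.p6) and span 250 bases before to 50 bases after the first start site listed. For Fcgr3 that table lists 2 starts, and the one printed lies inside the gene span given above, downstream of its outermost start. The table held 8 of the 9 genes, all but Ly6a. Capitals mark GAGGAA (the core bound by PU.1 and other ETS factors), TGTGGT (RUNX) and GATAA (GATA), searched on both strands. Of 27025 promoters 28.3% held GAGGAA, 16.9% TGTGGT and 25.8% GATAA.
Fcgr3 (chr1:171059354-171059653, minus strand): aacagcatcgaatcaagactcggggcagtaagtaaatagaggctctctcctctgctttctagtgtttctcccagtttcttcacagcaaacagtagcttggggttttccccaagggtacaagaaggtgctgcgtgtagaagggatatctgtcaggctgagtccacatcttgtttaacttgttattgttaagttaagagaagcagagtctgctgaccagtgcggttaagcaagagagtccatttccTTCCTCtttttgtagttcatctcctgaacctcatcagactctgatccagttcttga
Cd34 (chr1:194938571-194938870, plus strand): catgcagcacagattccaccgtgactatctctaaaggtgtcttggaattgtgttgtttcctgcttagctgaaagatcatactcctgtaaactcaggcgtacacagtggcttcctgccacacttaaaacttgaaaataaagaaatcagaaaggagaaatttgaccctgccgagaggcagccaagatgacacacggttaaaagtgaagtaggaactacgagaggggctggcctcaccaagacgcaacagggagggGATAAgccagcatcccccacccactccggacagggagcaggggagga
Cd48 (chr1:171681742-171682041, plus strand): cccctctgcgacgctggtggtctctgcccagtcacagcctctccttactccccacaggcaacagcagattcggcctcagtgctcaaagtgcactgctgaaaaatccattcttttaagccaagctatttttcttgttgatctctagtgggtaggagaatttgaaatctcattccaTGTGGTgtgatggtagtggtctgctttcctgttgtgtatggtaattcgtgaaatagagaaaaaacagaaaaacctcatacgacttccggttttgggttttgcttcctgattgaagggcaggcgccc

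Fcgr3 held 1 GAGGAA, read here as its reverse complement, Cd34 held 1 GATAA and Cd48 held 1 TGTGGT. A match of letters is not evidence that a factor binds there.

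Ly6a and Kit together define the stem and early progenitor gate. Ly6a encodes Sca-1, a GPI-anchored protein that interferon induces (ENSMUSG00000075602, chromosome 15, 74994877 to 74998031, minus strand). With TMM it had 20.2, 19.2 and 20.4 CPM in wild type against 36.8, 35.0 and 29.4 CPM in knockout. All knockout libraries lay above wild type, and the log2 fold change was 0.76 (SE 0.10, edgeR adjusted p = 3.76e-04). With total counts Ly6a had 29.0, 29.1 and 30.4 CPM in wild type against 24.3, 24.0 and 20.0 CPM in knockout, and it fell by 0.37 (SE 0.10, edgeR adjusted p = 0.00795). With total counts outside the 100 most abundant genes Ly6a stood at 0.14 and did not pass (edgeR adjusted p = 0.226). Its rank by FPKM, which no scaling of the library changes, was 2328 to 2417 in wild type, and nearer the top, at 1805 to 2054, in knockout.

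Other interferon-induced genes were counted beside Ly6a, which rose with TMM and fell with total counts. A part of interferon in the values of Ly6a was not tested. Of 12 interferon-induced genes 0 rose and 7 fell with TMM, at a median log2 fold change of -1.44, and with total counts 0 rose and 11 fell. Over all genes 14.4% fell with TMM and 70.7% with total counts. Rtp4 stood at 6.09 ± 0.548 CPM in wild type against 1.16 ± 0.626 CPM in knockout (n = 3 each), and fell by 2.41 on the log2 scale (SE 0.36, edgeR adjusted p = 7.84e-04).

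Ly6a lies among near copies. Of its 1297 windows of 50 bases 15% were also found in Ly6c1, 2.39% in Ly6i and 0.231% in Ly6c2. The longest coding stretch shared with Ly6c1 is 48 bases long (chr15:74995283-74995330, GRCm38, minus strand), and it is shown because Ly6c1 rose too. This stretch is shorter than 50 bases, so none of the shared windows lies wholly within it.
Ly6a and Ly6c1: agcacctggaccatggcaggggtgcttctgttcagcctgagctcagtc

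Ly6c1 had 45.6, 33.0 and 39.0 CPM in wild type against 217, 229 and 103 CPM in knockout, where replicate 3 stood below the other replicates. Its log2 fold change was 2.22 with TMM (SE 0.27, edgeR adjusted p = 2.08e-04) and 1.09 with total counts (edgeR adjusted p = 0.00307). Ly6c2, a surface antigen of monocytes and their progenitors, rose from 709 ± 49.8 to 3089 ± 204 CPM (n = 3 each, log2 2.12, SE 0.07, edgeR adjusted p = 8.68e-08), and by 0.99 with total counts. Of 7 Ly6 genes tested besides Ly6a, 3 rose and 1, Ly6d, fell with TMM, and with total counts 2 rose and 3 fell. How many reads of Ly6a belong to its copies was not tested.

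Kit encodes the receptor of stem cell factor, a tyrosine kinase on which stem cells, progenitors and mast cells depend (ENSMUSG00000005672, chromosome 5, 75574916 to 75656722, plus strand). It had 12.3, 13.0 and 15.7 CPM with TMM in wild type against 16.6, 16.9 and 17.2 CPM in knockout. The groups did not overlap, but the log2 fold change of 0.31 (SE 0.11) did not pass (edgeR adjusted p = 0.0669). It passed without wild-type replicate 3, the highest of its group, at 0.43 (edgeR adjusted p = 0.0270), with exon length and GC offsets at 0.56 (edgeR adjusted p = 0.00251) and with DESeq2 size factors at 0.33 (edgeR adjusted p = 0.0467). With total counts Kit fell by 0.83 (SE 0.12, edgeR adjusted p = 1.84e-04), from 17.7, 19.7 and 23.4 CPM to 11.0, 11.6 and 11.7 CPM.

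Relative to Kit, Ly6a had more counts in every knockout library than in any wild-type library. The counts of Ly6a over those of Kit were 1.64, 1.47 and 1.30 in wild type against 2.21, 2.07 and 1.71 in knockout, a difference of 0.44 on the log2 scale (SE 0.15, exact permutation p = 0.1, adjusted p = 0.2). With exon length and GC offsets the log2 fold changes of the 2 genes lay nearer, at 0.73 for Ly6a and 0.56 for Kit. Fcgr3 over Kit was higher by 0.82 (SE 0.10), and Cd34 over Kit and Cd27 over Kit were lower by log2 differences of -0.38 (SE 0.13) and -0.60 (SE 0.09). None of these 4 pairs overlapped between groups, each with an exact permutation p = 0.1. The share of pairs among all genes that separate in this way was not computed. Separation of single genes was common, with 22.2% of all genes all above wild type and 24.4% all below with TMM.

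**Figure D3:**
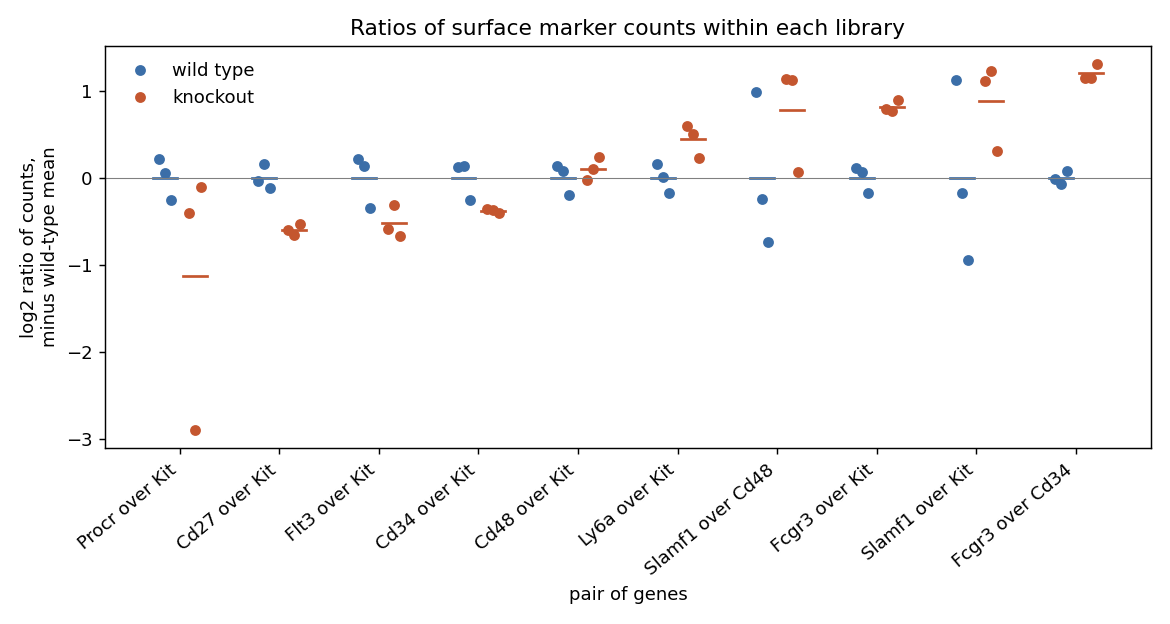
Log2 ratio of the counts of 10 pairs of genes in each library, as the difference from the wild-type mean of that pair. Points are libraries (wild type blue, knockout orange, 3 each) and bars are group means. Fcgr3 over Cd34 is separated the most relative to its spread, at a difference of 1.20, and the low point of Procr over Kit is knockout replicate 2.

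Flt3 encodes the other receptor tyrosine kinase of the set, carried by multipotent and lymphoid-primed progenitors (ENSMUSG00000042817, chromosome 5, 147330741 to 147400489, minus strand). It had 7.01, 7.03 and 6.07 CPM with TMM in wild type against 5.44, 6.70 and 5.29 CPM in knockout, and the groups overlapped. The log2 fold change of -0.21 (SE 0.15) did not pass (edgeR adjusted p = 0.345). With total counts it fell by 1.34 (SE 0.16, edgeR adjusted p = 3.75e-05). Flt3 over Kit differed by -0.52 on the log2 scale (SE 0.21, exact permutation p = 0.2, adjusted p = 0.25), with overlapping groups.

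Of 26 genes that signal downstream of Kit and Flt3, 2 rose, 5 fell and 19 did not pass with TMM (median log2 fold change -0.11). With total counts 0 rose and 24 fell (median -1.24), where 70.7% of all genes fell and their median was -1.22. Ptpn11, which encodes the phosphatase SHP2, had 25.4, 31.4 and 29.5 CPM in wild type against 16.4, 12.5 and 12.3 CPM in knockout. It fell by 1.06 (SE 0.13, edgeR adjusted p = 2.78e-04). The adaptor gene Grb2 fell by 0.84 (SE 0.23) and Stat5b by 0.79 (SE 0.18), while the kinase gene Fes rose by 0.51 (SE 0.12). The gene of the Flt3 ligand, Flt3l, went from 2.47 ± 0.498 to 3.20 ± 0.523 CPM without passing (n = 3 each, edgeR adjusted p = 0.25).

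Slamf1 and Cd48 are SLAM family genes that lie close together on chromosome 1, and the pair is used to tell stem cells from progenitors. Cd48 encodes a GPI-anchored protein of progenitors and mature leukocytes (ENSMUSG00000015355, 171682009 to 171705258, plus strand). It had 40.4, 40.9 and 40.8 CPM with TMM in wild type against 48.9, 54.3 and 60.5 CPM in knockout. All knockout libraries lay above wild type and were more spread. Its log2 fold change was 0.42 (SE 0.09, edgeR adjusted p = 0.00602). With total counts Cd48 fell by 0.71 (SE 0.10, edgeR adjusted p = 1.30e-04).

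Slamf1 encodes CD150 (ENSMUSG00000015316, 171767127 to 171801184, plus strand) and had few counts. It had 71, 39 and 29 counts in wild type against 56, 58 and 25 in knockout. The groups overlapped, and wild-type replicate 1 stood above the others of its group. The log2 fold change of 1.07 with TMM (SE 0.51) did not pass (edgeR adjusted p = 0.149), but without wild-type replicate 1 it was 1.73 and passed (edgeR adjusted p = 0.0323). With total counts it was -0.05 (edgeR adjusted p = 0.934). Slamf1 over Cd48 differed by 0.78 on the log2 scale (SE 0.62, exact permutation p = 0.2), with overlapping groups.

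None of the other SLAM family genes listed was called higher, and some of them had few counts. Of 10 SLAM genes, receptors and adaptors besides these members, 0 rose and 4 fell with TMM at a median log2 fold change of -0.75, and with total counts 0 rose and 9 fell. The shares of all genes that fell were 14.4% with TMM and 70.7% with total counts. Cd244a, the receptor that binds CD48, had 4.64, 4.72 and 4.17 CPM in wild type against 2.66, 2.18 and 2.44 CPM in knockout. It fell by 0.90 (SE 0.17, edgeR adjusted p = 0.00384). The adaptor gene Sh2d1b1 fell by 0.90 (SE 0.21), Slamf7 by 0.58 (SE 0.19) and Cd84 by 0.37 (SE 0.11).

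Procr encodes the endothelial protein C receptor, an antigen of long-term stem cells (ENSMUSG00000027611, chromosome 2, 155751117 to 155755471, plus strand). It had 62, 75 and 77 counts in wild type against 32, 5 and 31 in knockout. Knockout replicate 2 stood far below the other libraries. Its log2 fold change of -0.43 with TMM (SE 0.60) did not pass (edgeR adjusted p = 0.644) and was 0.06 without that library. With total counts Procr fell by 1.57 (SE 0.60, edgeR adjusted p = 0.0382). F2r, the gene of the thrombin receptor PAR1, through which EPCR can signal, rose from 1.61 ± 0.279 to 2.89 ± 0.340 CPM (n = 3 each, log2 0.85, SE 0.23, edgeR adjusted p = 0.0214), and stood at -0.28, not a call, with total counts.

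Cd27 encodes a receptor of the TNF receptor family carried by multipotent progenitors and lymphocytes (ENSMUSG00000030336, chromosome 6, 125232622 to 125237010, minus strand). It had 32.0, 38.4 and 38.2 CPM with TMM in wild type against 29.2, 28.4 and 31.5 CPM in knockout. The knockout libraries lay below wild type by a narrow margin. The log2 fold change of -0.29 (SE 0.10) passed at an edgeR adjusted p = 0.0496, and no longer passed when any library but wild-type replicate 1 was left out (adjusted p = 0.0526 to 0.194). With total counts Cd27 fell by 1.42 (SE 0.11, edgeR adjusted p = 3.15e-06). Its gene overlaps the microRNA gene Mir8113. Siva1, whose product binds CD27 inside the cell, went from 290 ± 31.7 to 311 ± 6.07 CPM without passing (n = 3 each, edgeR adjusted p = 0.406).

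By rank within a library, Cd34 and Cd27 were placed lower in all knockout libraries than in any wild-type library, and Ly6a, Kit and Slamf1 higher. Cd34 lay at ranks 1478 to 1574 by FPKM in wild type and 1809 to 1832 in knockout, and Cd27 at 2051 to 2325 and 2541 to 2750. Kit lay at 6455 to 7031 and 5718 to 6221, and Slamf1 at 12555 to 14825 and 11411 to 12418. The ranks of Fcgr3, at 355 to 401 and 319 to 359, overlapped. The share of all genes whose ranks separate the groups was not computed. Wild-type libraries had a count for 17418 to 17671 genes and knockout libraries for 16232 to 16609. The rank of a gene with few counts, such as Slamf1, depends on that number, and the CPM of Slamf1 overlapped between groups under both scalings.

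**Figure D4:**
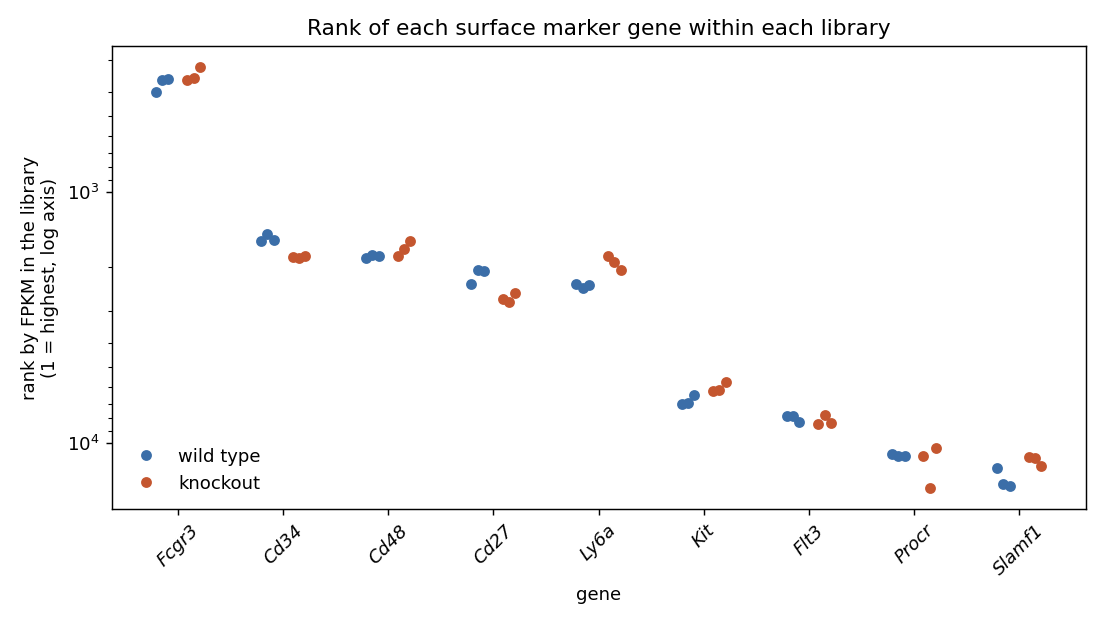
Rank of each of the 9 genes by deposited FPKM among the 18491 genes of a library, with 1 as the highest, on an inverted log axis. Points are libraries, with 3 wild type in blue and 3 knockout in orange. Cd34 and Cd27 sit lower in every knockout library and Ly6a, Kit and Slamf1 sit higher.

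Other antigens used to gate stem and progenitor cells went both ways. Of 29 tested, 9 rose, 6 fell and 14 did not pass with TMM, at a median log2 fold change of -0.02. With total counts 1 rose, 27 fell and 1 did not pass, where 4.23% of all genes rose and 70.7% fell. The gene that rose under both scalings was Cd24a, the heat-stable antigen, at 32.4, 35.8 and 39.9 CPM in wild type against 97.2, 104 and 85.8 CPM in knockout (log2 1.41 with TMM, SE 0.10, edgeR adjusted p = 6.83e-06, and 0.27 with total counts, edgeR adjusted p = 0.0463). Cd47, the signal against phagocytosis, rose by 0.83 (SE 0.07) and Cd93 by 0.55 (SE 0.07). With total counts the values of Cd47 and Cd93 were -0.30 and -0.59, each a call in the other direction.

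Granulocytes, monocytes and mast cells also express Fcgr3, so marker genes of such cells were counted under both scalings, and the lists differed. Of 5 eosinophil markers tested 5 rose with TMM, and the summed level of the 6 on the list was 5534 to 6684 CPM in wild type and 41734 to 47424 CPM in knockout. Most of that sum was Prg2, at 5155 ± 595 and 39685 ± 2839 CPM. With total counts 3 of the eosinophil markers rose and 0 fell, against 1 and 3 of the neutrophil markers, 0 and 7 of the mast cell and basophil markers and 0 and 5 of the monocyte and macrophage markers. Over all genes 4.23% rose and 70.7% fell with total counts. Ccr3, the eosinophil chemokine receptor, had 0 to 18 counts a library and was not tested. Of 8 neutrophil markers 4 rose, with Ly6g, the defining antigen of neutrophils, at 0 to 23 counts a library, and a summed level of 2339 to 2715 CPM in wild type and 8353 to 8670 CPM in knockout. S100a8 made up most of it, at 2120 ± 164 and 7660 ± 147 CPM. Of 8 mast cell and basophil markers 3 rose and 5 did not pass, summed at 2068 to 2378 and 3672 to 4056 CPM. Most of these sums was Prss34, at 1810 ± 157 and 2986 ± 202 CPM, and the list does not separate mast cells from basophils. Of 8 monocyte and macrophage markers 1 rose and 1 fell, summed at 109 to 118 and 104 to 108 CPM. Their part in the level of Fcgr3 was not tested.

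The genes whose pattern was most like that of Fcgr3 over the 6 libraries were Rpn1, Dcps and Arhgdib, each at a Pearson r of 0.999 among 4919 genes with at least 10 CPM. Those most like Ly6a were Ptpa, G6pc3 and Imp3, also at 0.999. With 3 libraries on either side such values describe a split between the groups and little more.

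In the authors' deposited table, Fcgr3 has a log2 fold change of 1.14 (SE 0.07) and is classed as up, and the other 8 genes are classed as stable, with Ly6a at 0.77 (SE 0.12) and Cd48 at 0.43 (SE 0.10). Cd27 has an adjusted p of 0.0537 in the authors' deposited table.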

How the data were processed

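Per the labels, RNA of sorted mouse bone marrow cells was sequenced with a TruSeq kit on a NovaSeq instrument. Tools listed in the submitters' processing notes, without options, were DESeq2 1.32.0, featureCounts 2.0.1, HISAT2 2.2.1 and fastp 0.22.0, with mm10 as the build. The deposited table holds raw counts per gene and library. It also holds length-scaled values, taken as the authors' FPKM because at least 98.6% of genes with 1 transcript lay within 1% of a constant multiple of the FPKM computed from counts. The authors' deposited log2 fold changes, standard errors on the log2 scale, p-values, mean signal and test score were used only to describe their table.

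Of 18491 gene IDs 18470 matched GENCODE vM21 (GRCm38, the same assembly as mm10). Counts were tested with edgeR 4.0.16 in R 4.3.3 (filterByExpr, TMM, glmQLFit and glmQLFTest, group as the only term, two-sided, Benjamini-Hochberg adjustment over 15474 genes). Standard errors are the log2 fold change over the square root of F. Where no scaling is named, CPM is relative to library size times its TMM factor. Ratios of 10 pairs used counts plus 0.5 and exact permutation tests (scipy 1.17.1). Replicate pairs differed by more than sampling noise, at a chi-square of 13.3 to 37.5 per gene. On simulated counts of the knockout against wild-type comparison, 14734 genes were tested and 200 were changed. There edgeR called 23.9% of the genes set to 1.5-fold, 50.7% at 2-fold and 84.8% at 4-fold, and 6.19% of calls were false. The share of false calls under a shift in composition such as that of these libraries was not tested.

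The members, gene lists and pairs were chosen with earlier results of these data known. Besides the 9 members, the genes named were up to 5 called genes of lowest p per list, near copies of Fcgr3 and Ly6a, the 2 most abundant genes per marker list, and the 3 genes most like Fcgr3 and Ly6a. Flt3l, Siva1, Fcgr1, Cd4, Ccr3, Ly6g and Ly6i were named after their values were seen. Some of these genes are not reported here. Markers of B, T, NK, red blood, megakaryocyte and endothelial cells were counted and are given in the closing section.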

Additional observations from a re-analysis of the deposited data

How the results depend on the processing

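The calls depend on the scaling. With total counts 0 members and 655 of all genes were called higher, and 7 members and 10937 of all genes lower, and the log2 fold changes of Ly6a (-0.37), Kit (-0.83), Cd48 (-0.71), Slamf1 (-0.048) and Fcgr3 (-0.0016) turned, the last 2 by less than their standard errors. With total counts outside the 100 most abundant genes 1 member, Fcgr3 (0.52), and 1248 genes were called higher, 4 members and 8108 genes lower, and Kit (-0.31) and Cd48 (-0.19) turned. Ly6a (0.14) no longer passed there (edgeR adjusted p = 0.226). With offsets for exon length and GC content 5 members and 3163 genes were called higher, 0 members and 1325 genes lower, and Cd34 (0.25, now called higher, adjusted p = 0.0188) and Flt3 (0.017) turned. With upper quartile factors, with DESeq2 size factors in edgeR and with the replicate block 0 members were called lower, since Cd27 no longer passed (adjusted p = 0.0529, 0.0649 and 0.0596). Under the DESeq2 test the 3 higher members and Cd27 were called.

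Leaving out 1 library in turn gave 3 to 4 members and 2226 to 2542 genes higher, and 0 to 1 members and 1356 to 2142 genes lower. The lower genes numbered 1356 without wild-type replicate 2 and 1419 without wild-type replicate 3. Procr ranged from -0.89 without knockout replicate 3 to 0.056 without knockout replicate 2, where it turned. The log2 ratio of Fcgr3 over Cd34 ranged from 1.14 to 1.24 and no ratio changed sign without a library or without the pseudocount. Slamf1 over Kit ranged from 0.41 to 1.44, Slamf1 over Cd48 from 0.41 to 1.27 and Procr over Kit from -1.65 to -0.25, and the cause was not tested. Ratios with offsets for exon length and GC content were not computed. With those offsets the log2 fold change of Cd48 (0.45) stood below that of Kit (0.56), and with TMM above it (0.42 and 0.31). The replicate numbers did not pair the libraries: the deviations of same-numbered libraries from their group means correlated at 0.041, -0.0051 and 0.0477, and the block moved the calls to 2467 higher and 1906 lower. Of the members' log2 fold changes under the alternatives, 97 kept direction and side of the threshold, 10 turned, 10 no longer passed and 9 newly passed. Counts of 25 to 71 for Slamf1 and 5 to 77 for Procr limit what could be detected.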

Other observations

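Markers of cell types that carry some of the same antigens gave these values with TMM. Of 8 B cell markers 0 rose and 5 fell, and Cd79b fell from 87.2 ± 9.95 to 70.2 ± 4.97 CPM (n = 3 each, edgeR adjusted p = 0.0353). Of 5 T and NK cell markers tested 0 rose and 1, Lck, fell. Of 4 endothelial markers tested, which share Cd34, Procr and Ly6a with stem cells, 0 rose and 0 fell, and Egfl7 gave an edgeR adjusted p = 0.512. Of 6 megakaryocyte markers 1 rose, Pf4, and 2 fell, and of 7 erythroid markers 2 rose, Hbb-bs and Hba-a1, and 1 fell. With total counts 0 rose and 6 fell of the B cell markers, 0 and 5 of the T and NK cell markers, 0 and 3 of the endothelial markers, 0 and 5 of the megakaryocyte markers and 2 and 4 of the erythroid markers. Over all genes 4.23% rose and 70.7% fell with total counts.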
